A study of Mus musculus with 23 samples.

Results

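Cholesterol synthesis was followed through 8 genes: Srebf2, which encodes the transcription factor SREBP2, and 7 enzymes of the route from acetyl-CoA to cholesterol, Hmgcs1, Idi1, Fdps, Fdft1, Sqle, Lss and Cyp51. All probe sets that the array's annotation gives to one of these genes alone were taken, which gave 22 of the 45037 probe sets tested, and each gene was represented by its probe set with the highest mean over the 23 arrays. The 8 genes stand among 18193 genes represented in the same way. Liver RNA came from male mice, hemizygous for FVB/N-SULT1A1/2, so all 4 groups carried the human sulfotransferase transgene and no group lacked it; what drives the transgene is not given in the sources used here. Treated mice received oral 1-MIM-OH (1-methoxy-3-indolylmethyl alcohol, a breakdown product of a glucosinolate from cabbage-family plants) at 26 mg/kg body mass, and control mice received the vehicle glyceryl trioctanoate alone. The groups were 1-MIM-OH for 21 d (10 treatments, 5 animals), vehicle for 21 d (6 animals), 1-MIM-OH for 90 d (40 treatments, 6 animals) and vehicle for 90 d (6 animals), all labelled with an age of 5 weeks; a further animal given 1-MIM-OH for 21 d was left out by the authors for hybridisation artefacts. The study's title sets the treated profile beside that of genotoxic hepatocarcinogens. Levels are log2 signals, so a difference of 1 is a doubling, and the number of arrays limits the precision.

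The liver makes much of the body's cholesterol. SREBP2 sits in the membrane of the endoplasmic reticulum as an inactive precursor, is carried to the Golgi by SCAP when membrane sterol is low, and is cut there, which frees the part that enters the nucleus and switches on the genes of the sterol pathway. When sterol is plentiful, INSIG proteins hold SCAP and SREBP2 back, so control acts on the protein as well as on the mRNA that an array measures. Active SREBP2 binds sterol response elements and works with factors at neighbouring CCAAT and GC boxes.

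Promoter windows from RefSeq (assembly GRCm38.p6, 250 bases before to 50 after the gene's start) were found for 5 of the 8 genes: Srebf2, Hmgcs1, Idi1, Lss and Cyp51. Read 5′ to 3′ on the gene's strand, below are those of Hmgcs1, Idi1 and Cyp51, enzymes whose levels followed each other across animals, and of Srebf2, whose level did not follow theirs. Capitals mark CCAAT on either strand (ATTGG where it lies on the other strand) and TCACCCCA, which lies inside the classical sterol response element. The windows are chr13:119690101-119690400 on the plus strand for Hmgcs1, chr13:8885356-8885655 on the plus strand for Idi1, chr5:4104648-4104947 on the minus strand for Cyp51 and chr15:82147019-82147318 on the plus strand for Srebf2, each spanning the annotated start of its gene.
Hmgcs1: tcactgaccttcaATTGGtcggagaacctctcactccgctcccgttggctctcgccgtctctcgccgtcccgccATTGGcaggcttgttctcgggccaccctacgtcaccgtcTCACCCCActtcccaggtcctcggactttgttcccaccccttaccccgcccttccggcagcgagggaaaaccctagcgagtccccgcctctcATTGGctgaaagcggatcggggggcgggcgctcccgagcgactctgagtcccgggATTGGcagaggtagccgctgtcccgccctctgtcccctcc
Idi1: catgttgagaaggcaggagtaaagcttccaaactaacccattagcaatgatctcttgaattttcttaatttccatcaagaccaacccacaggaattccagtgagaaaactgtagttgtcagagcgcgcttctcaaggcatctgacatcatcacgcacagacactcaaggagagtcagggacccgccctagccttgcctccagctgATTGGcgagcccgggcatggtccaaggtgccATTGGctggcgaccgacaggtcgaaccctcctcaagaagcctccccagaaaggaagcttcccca
Cyp51: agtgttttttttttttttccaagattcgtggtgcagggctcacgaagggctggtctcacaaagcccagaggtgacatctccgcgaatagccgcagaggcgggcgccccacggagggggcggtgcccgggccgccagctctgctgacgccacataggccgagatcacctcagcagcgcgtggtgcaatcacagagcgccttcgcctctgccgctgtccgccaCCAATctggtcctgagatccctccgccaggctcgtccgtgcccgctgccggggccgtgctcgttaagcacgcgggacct
Srebf2: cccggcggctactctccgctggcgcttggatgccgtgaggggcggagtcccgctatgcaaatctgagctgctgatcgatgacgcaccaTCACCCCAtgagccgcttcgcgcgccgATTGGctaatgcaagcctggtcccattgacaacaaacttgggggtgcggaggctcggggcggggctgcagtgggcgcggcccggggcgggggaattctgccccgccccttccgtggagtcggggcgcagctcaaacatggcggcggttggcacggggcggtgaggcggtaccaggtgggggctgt
All 5 windows held CCAAT and all 5 held the GC box GGGCGG, which were present on either strand in 37.4% and 35.7% of 32851 mouse promoter windows. TCACCCCA, which was searched after the promoters had been read, occurred in 2 of the 5, starting 137 bases before the start of Hmgcs1 and 162 bases before that of Srebf2, against 1.56% of all windows. The full sterol response element, of 10 bases, had an exact match in none of the 5 (0.0913% of all windows). Its form with 1 set inner base left free had none either (0.234%), nor had the E-box CACGTG (7.15%). No other mismatch to the element was searched for. The site in Hmgcs1 differs from it only in the base before TCACCCCA, and that in Srebf2 only in the base after. The missing matches therefore do not show that these promoters lack a sterol response element. All motifs were searched on both strands. These matches are a description of letters in a short window.

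None of the 8 genes passed the test for treatment at 21 d or at 90 d, at an adjusted p under 0.05 over all probe sets. At 21 d, 1.17% of all genes passed (213 of 18193), and at 90 d, 0.748% (136 of 18193). At an unadjusted p under 0.05 there were 2 of the 8 at 21 d (Lss and Fdft1) and 0 at 90 d, against 16.6% and 12.1% of all genes. The median difference of the 8 genes was 0.12 on the log2 scale at 21 d, with 5 above 0 and 3 below, and 0.08 at 90 d, with 7 above 0 and 1 below. The medians over all genes were -0.02 and 0.02. The 21 d split also changed, with the handling of the 3' to 5' signal of Gapdh described under Fdps. With it as a covariate 8 of 8 lay above 0 (median 0.25), and with that of beta-actin 7 did (median 0.18). None passed in these covariate fits. Without the 5 arrays where the Gapdh value exceeded 0.9, 8 of 8 lay above 0 (median 0.46). That last fit leaves 1 treated liver at 21 d, that of animal 2, which stood apart in Saa1 and in the Kupffer cell score given further on. No gene of the 8 had treated and vehicle ranges that stood apart at either time, while 2.81% of all genes had at 21 d and 1.35% at 90 d. A p that misses the threshold does not show that the levels were alike, and the 95% confidence intervals given for each gene show how large a difference these animals leave possible. Because the samples are whole liver, fewer cells of a type and less RNA per cell cannot be told apart.

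**Figure D1:**
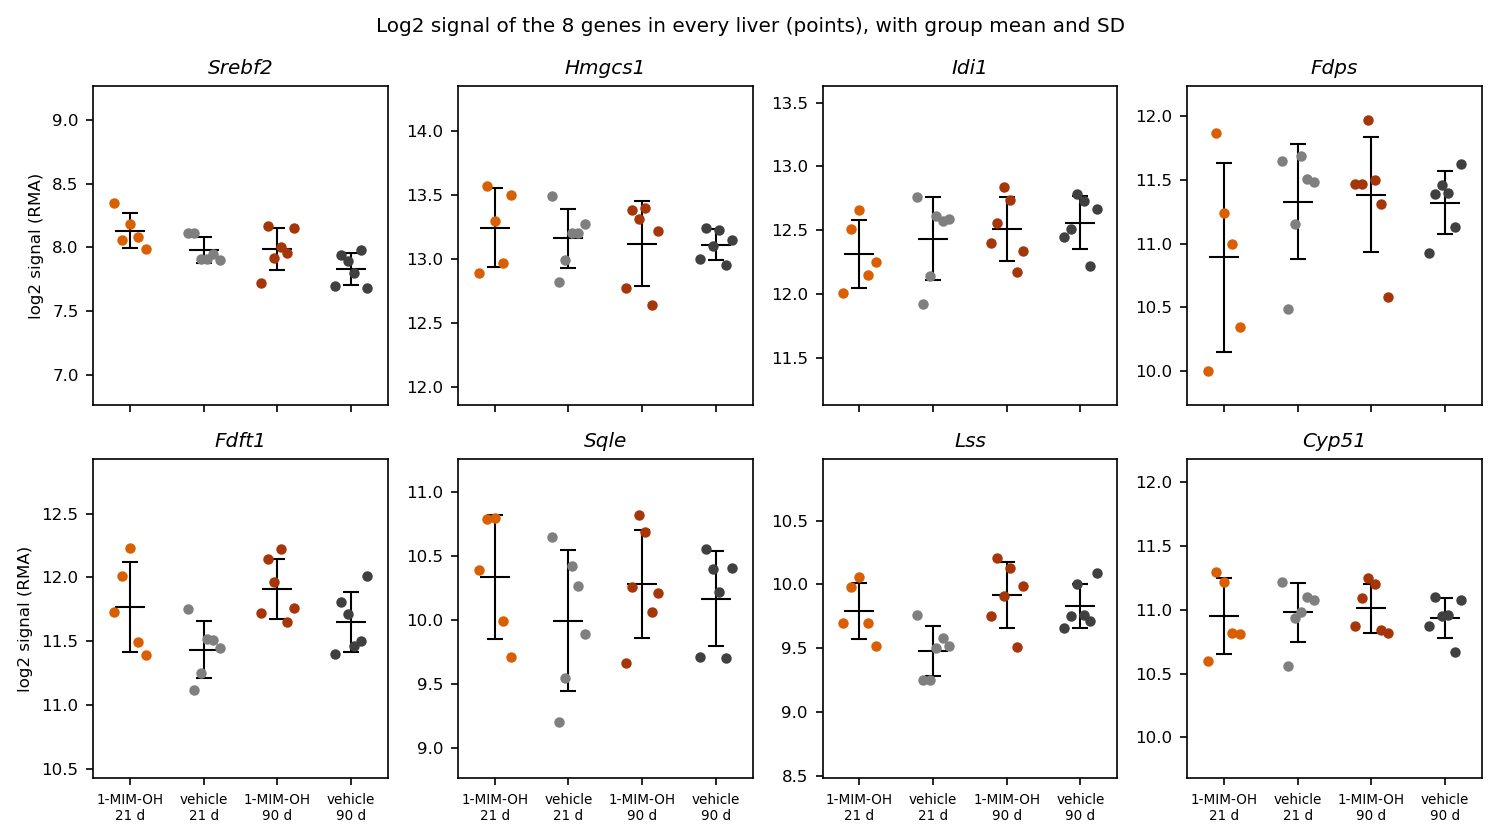
Log2 signal of each gene in each liver (1 point per animal), with the group mean and SD, for 1-MIM-OH and vehicle at 21 d (n = 5 and 6) and at 90 d (n = 6 and 6); each panel spans the same number of log2 units. Treated and vehicle points overlap for all 8 genes at both times, and Fdps and Sqle spread most.

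Srebf2 was measured by the probe set 1452174_at. Its level was 8.35, 8.06, 8.18, 8.08 and 7.99 in the 5 livers with 1-MIM-OH for 21 d, against 7.90 to 8.11 with a median of 7.93 in the 6 vehicle livers. At 90 d it was 7.72 to 8.17 with a median of 7.98 in treated livers, against 7.68 to 7.98 with a median of 7.84 in vehicle livers. At 21 d 2 of the 5 treated livers, and at 90 d 3 of the 6, lay above all vehicle livers of that time, and the groups overlapped. The difference was 0.15 ± 0.08 at 21 d (SE; 95% interval -0.02 to 0.32; adjusted p = 0.398) and 0.16 ± 0.08 at 90 d (interval -0.01 to 0.32; adjusted p = 0.522), and the upper end of both intervals corresponds to a 1.25-fold higher level. The group means ran from 8.13 in 1-MIM-OH 21 d livers through 7.99 in 1-MIM-OH 90 d and 7.98 in vehicle 21 d livers to 7.83 in vehicle 90 d livers. Neighbours in that order overlapped. The first and the last did not (lowest 7.99 against highest 7.98). They differ in both treatment and time and were not tested against each other. This pair was picked after the values were seen, and the share of all genes standing apart in it was not computed. Its other probe set, 1426744_at, gave 0.24 ± 0.11 at 21 d (adjusted p = 0.296) and 0.11 ± 0.11 at 90 d.

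Hmgcs1 encodes the cytosolic HMG-CoA synthase, which joins acetyl-CoA to acetoacetyl-CoA at the entry of the pathway. Its level was 12.89, 13.57, 13.30, 12.97 and 13.50 in livers with 1-MIM-OH for 21 d, against 12.82 to 13.49 with a median of 13.20 in vehicle livers. At 90 d the range was 12.64 to 13.40 (median 13.27) in treated and 12.95 to 13.24 (median 13.12) in vehicle livers. The group means ran only from 13.25 to 13.11. The difference was 0.08 ± 0.15 at 21 d (interval -0.22 to 0.39; adjusted p = 0.846) and 0.01 ± 0.14 at 90 d (interval -0.28 to 0.30; adjusted p = 0.991). Of its 4 other probe sets, the 3 bright ones gave -0.28 to -0.06 at 21 d and -0.14 to -0.08 at 90 d. The dim 1441536_at, with a mean of 3.61 log2 units, gave 0.71 ± 0.29 at 21 d (adjusted p = 0.227) and -0.36 ± 0.28 at 90 d.

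Idi1 encodes isopentenyl diphosphate isomerase, which makes the allylic unit from which longer isoprenoids are built. It measured 12.01, 12.51, 12.66, 12.15 and 12.25 in livers with 1-MIM-OH for 21 d, against 11.92 to 12.76 with a median of 12.58 in vehicle livers. At 90 d it measured 12.17 to 12.84 (median 12.48) in treated and 12.22 to 12.78 (median 12.59) in vehicle livers. The ranges nearly coincided at 90 d. The difference was -0.12 ± 0.15 at 21 d (interval -0.43 to 0.20; adjusted p = 0.778) and -0.05 ± 0.14 at 90 d (interval -0.35 to 0.25; adjusted p = 0.938). Its other probe set, 1423804_a_at, gave -0.08 ± 0.18 at 21 d and -0.29 ± 0.17 at 90 d.

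Fdps encodes farnesyl diphosphate synthase, whose product is the branch point between sterols and other isoprenoids. It had the widest spread of the 8 genes: 10.00, 11.87, 11.24, 11.00 and 10.35 in livers with 1-MIM-OH for 21 d, against 10.49 to 11.69 with a median of 11.50 in vehicle livers. Of the treated animals, 2 lay below all vehicle animals and 1 lay above them. At 90 d the range was 10.58 to 11.97 (median 11.47) in treated and 10.93 to 11.62 (median 11.39) in vehicle livers. The difference was -0.44 ± 0.27 at 21 d (interval -0.99 to 0.12; adjusted p = 0.463) and 0.06 ± 0.26 at 90 d (interval -0.47 to 0.59; adjusted p = 0.961).

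The direction of the 21 d difference of Fdps changed with the covariate or filter used. Control probe sets read both ends of Gapdh, and the excess of the 3' over the 5' signal, which grows as RNA or labelled product gets shorter, was 1.18, 0.14, 1.02, 1.23 and 1.45 log2 units in the 5 treated livers, against 0.09 to 0.49 in the 6 vehicle livers. Thus 4 of the 5 treated and 0 of the 6 vehicle arrays at 21 d lay over 0.9, so most of the Gapdh excess and the treatment cannot be told apart there, and its part in the result was not tested. At 90 d it was 0.14 to 1.24 in treated and 0.36 to 0.74 in vehicle livers. With the Gapdh excess as a covariate, the 21 d difference of Fdps was 0.33 (adjusted p = 0.774), and it was 0.54 (adjusted p = 0.56) without the 5 arrays over 0.9. The last setting leaves 1 treated array at 21 d, that of animal 2, whose spread is borrowed from the other groups and which stood apart in the acute phase gene Saa1 (14.83) and in the Kupffer cell score (2.15) given further on. Without animal 2 alone the difference was -0.68 (adjusted p = 0.118). The other probe set of Fdps, 1438150_at, was dim, with a mean of 2.89, and gave -0.09 ± 0.07 at 21 d.

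Fdft1 encodes squalene synthase, the first step that commits farnesyl units to sterols. Its level was 11.73, 12.01, 12.23, 11.49 and 11.39 in livers with 1-MIM-OH for 21 d, against 11.12 to 11.75 with a median of 11.48 in vehicle livers. At 90 d it was 11.65 to 12.22 (median 11.86) in treated and 11.40 to 12.01 (median 11.61) in vehicle livers. At each time 2 treated animals lay above all vehicle animals. The difference was 0.34 ± 0.15 at 21 d (interval 0.03 to 0.64; unadjusted p = 0.032, adjusted p = 0.262; exact permutation p = 0.104) and 0.26 ± 0.14 at 90 d (interval -0.03 to 0.55; adjusted p = 0.559). This probe set, 1438322_x_at, may bind related transcripts, as its suffix marks. The bright 1448130_at gave 0.36 ± 0.15 at 21 d (adjusted p = 0.24) and 0.25 ± 0.14 at 90 d, and the 2 dim ones, with means near the array median, gave -0.14 and -0.06 at 21 d.

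Sqle encodes squalene epoxidase, which adds the oxygen that the ring closure needs, and had a single probe set, 1415993_at. It measured 10.39, 10.79, 10.80, 9.99 and 9.71 in livers with 1-MIM-OH for 21 d, against 9.20 to 10.65 with a median of 10.08 in vehicle livers. At 90 d it measured 9.66 to 10.82 (median 10.23) in treated and 9.70 to 10.56 (median 10.31) in vehicle livers. The spread within each group exceeded the distance between groups. The difference was 0.34 ± 0.25 at 21 d (interval -0.19 to 0.87; adjusted p = 0.571) and 0.12 ± 0.24 at 90 d (interval -0.39 to 0.62; adjusted p = 0.911).

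Lss encodes lanosterol synthase, which closes the rings of the first sterol. Its level was 9.70, 9.98, 10.06, 9.70 and 9.52 in livers with 1-MIM-OH for 21 d, against 9.25 to 9.76 with a median of 9.51 in vehicle livers. The difference of 0.32 ± 0.12 is a 1.24-fold higher level (fold interval 1.04 to 1.48), with an unadjusted p of 0.0175, an adjusted p of 0.201 and an exact permutation p of 0.0519. At 90 d the range was 9.51 to 10.21 (median 9.95) in treated and 9.66 to 10.09 (median 9.75) in vehicle livers, a difference of 0.09 ± 0.12 (interval -0.15 to 0.33; adjusted p = 0.85). Its other probe sets, 1426913_at and 1420014_at, gave 0.18 ± 0.13 and 0.14 ± 0.11 at 21 d.

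Cyp51 encodes the demethylase that takes lanosterol onward to cholesterol. Its level was 10.60, 11.30, 11.22, 10.82 and 10.81 in livers with 1-MIM-OH for 21 d, against 10.56 to 11.22 with a median of 11.03 in vehicle livers. At 90 d it was 10.82 to 11.25 (median 10.98) in treated and 10.67 to 11.10 (median 10.96) in vehicle livers. All 4 group means lay between 10.94 and 11.01. The difference was -0.03 ± 0.13 at 21 d (interval -0.29 to 0.23; adjusted p = 0.947) and 0.07 ± 0.12 at 90 d (interval -0.18 to 0.32; adjusted p = 0.884). Its other probe sets, 1422533_at and 1422534_at, gave 0.02 and -0.05 at 21 d, and -0.21 and 0.14 at 90 d.

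**Figure D2:**
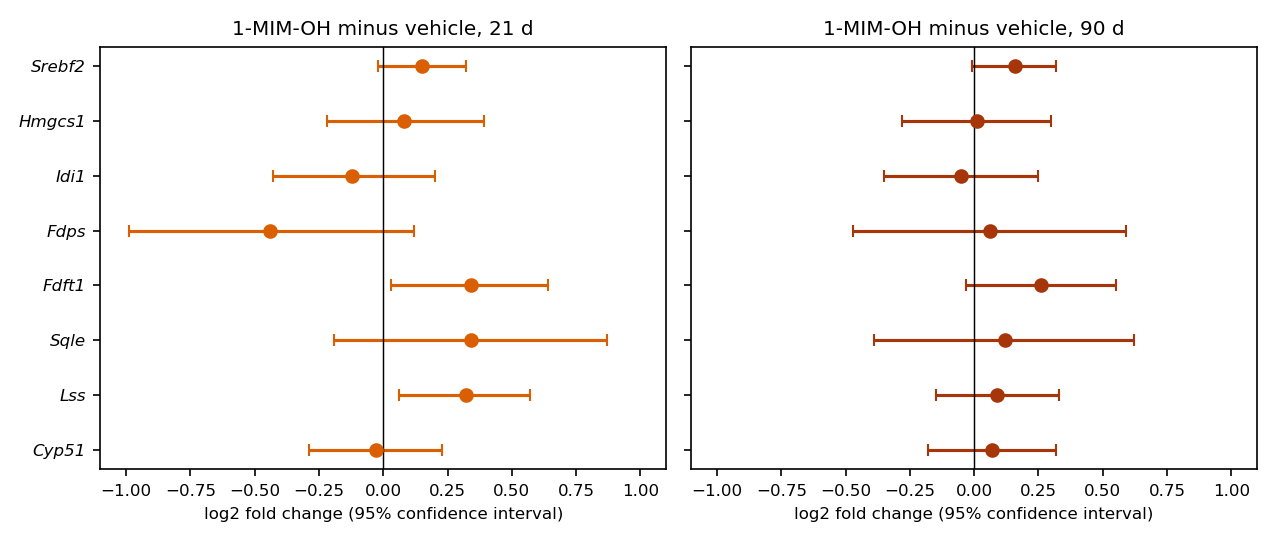
Log2 fold change of 1-MIM-OH over vehicle for each gene (point) with its 95% confidence interval (bar), at 21 d on the left and 90 d on the right. The intervals of Lss and Fdft1 exclude 0 at 21 d before adjustment over all probe sets, and the interval of Fdps at 21 d is the widest, from -0.99 to 0.12.

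The treatment effects at the 2 times were also set against each other, and none of the 8 genes passed; 0% of all genes did (0 of 18193, with 8.64% at an unadjusted p under 0.05). The difference of the effects, 90 d minus 21 d, ran from -0.23 ± 0.17 for Lss (adjusted p = 0.669) to 0.50 ± 0.37 for Fdps (adjusted p = 0.667). The value of Fdps turned negative in the same settings that turned its 21 d difference. Both treatment effects of Srebf2 were almost the same, with a difference of 0.00 ± 0.11 between them (interval -0.23 to 0.24).

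Comparing 90 d with 21 d gave no call among the 8 genes either. These times also differ in the number of treatments, 40 against 10. Between 90 d and 21 d of 1-MIM-OH, 0.0934% of all genes passed (13.3% at an unadjusted p under 0.05, and 0 of the 8), and the 8 genes ran from -0.15 ± 0.08 for Srebf2 (adjusted p = 0.456) to 0.49 ± 0.27 for Fdps (adjusted p = 0.434). Between 90 d and 21 d of vehicle, 0.011% of all genes passed, with 6.43% at an unadjusted p under 0.05, and 1 of the 8, Lss. Lss stood at 9.66 to 10.09 (median 9.75) in the vehicle 90 d livers, against 9.25 to 9.76 (median 9.51) in the vehicle 21 d livers. This was a difference of 0.35 ± 0.12 with an unadjusted p of 0.00645, an adjusted p of 0.76 and an exact permutation p of 0.0108 (0.346 after adjustment over the 32 exact tests made on the 8 genes). The other probe sets of Lss gave smaller differences here, 0.01 ± 0.12 for 1426913_at and 0.11 ± 0.11 for 1420014_at. Of those 32 tests, Lss between the vehicle groups was the only one under 0.05 before adjustment. The smallest p these tests could give was 0.00433 with 5 against 6 animals and 0.00216 with 6 against 6.

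Each of the 8 genes varied more within the groups than between them. Over the 23 livers the highest level was 3.92-fold the lowest for Fdps, 3.07-fold for Sqle, 2.16-fold for Fdft1 and between 1.59-fold and 1.95-fold for the other 5 genes. The SD within groups was 0.49 log2 units for Fdps and 0.46 for Sqle, larger than in 97.2% and 96.8% of the 10844 genes with a mean of at least 6. For the other 5 enzymes it was 0.21 to 0.27, larger than in 77.1% to 87.6% of those genes. The SD of Srebf2, 0.13, was below their median of 0.16. Group membership held 2.02% of the variance of Cyp51, 4.57% of that of Hmgcs1 and 8.69% of that of Sqle, against 43.0% of that of Lss and 41.8% of that of Srebf2. The median over the 10844 genes was 20.6%.

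The enzymes were high or low together from animal to animal. Averaged over the 7 enzymes, each centred on its own mean, the level was highest in 1-MIM-OH 21 d animal 2 and 1-MIM-OH 90 d animal 3 (0.37 each) and lowest in vehicle 21 d animal 2 (-0.59). By group it ran from -0.31 to 0.37 in 1-MIM-OH 21 d livers, against -0.59 to 0.26 in vehicle 21 d livers, and from -0.18 to 0.37 in 1-MIM-OH 90 d livers, against -0.23 to 0.22 in vehicle 90 d livers. Each group thus held animals at both ends.

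**Figure D3:**
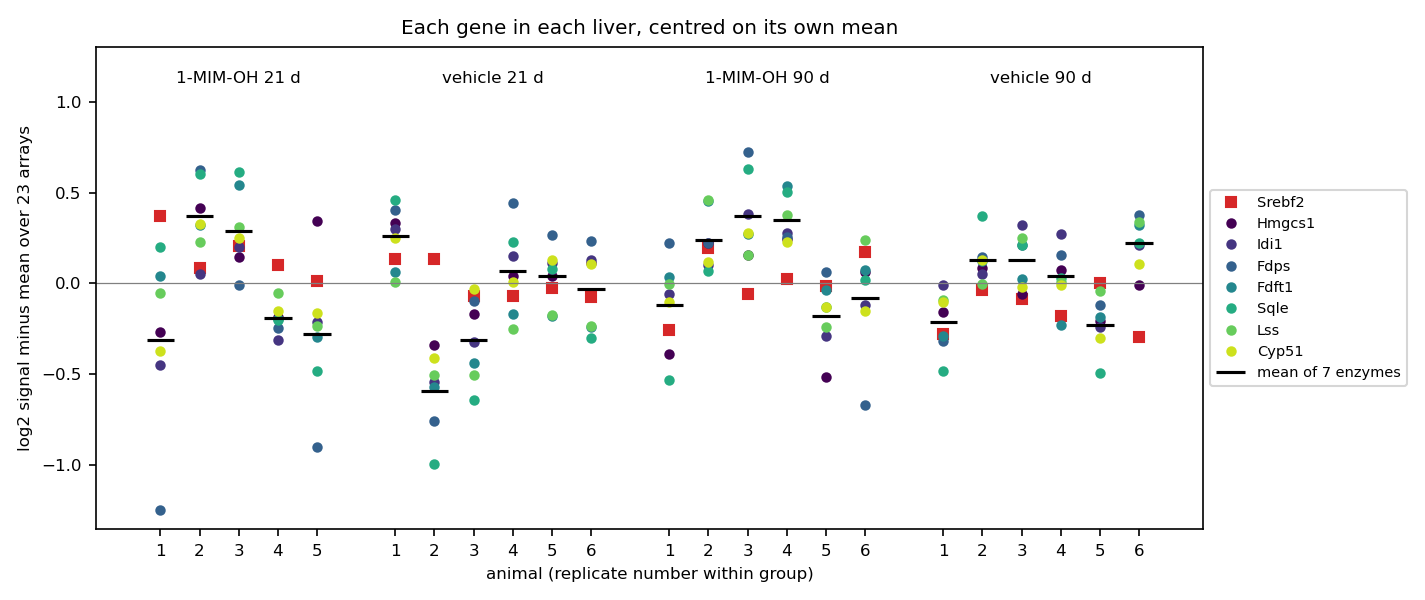
Log2 signal of each gene in each liver minus the gene's mean over the 23 livers, by animal within group; circles are the 7 enzymes, squares are Srebf2 and the black bar is the mean of the 7 enzymes. The bar runs from -0.59 in vehicle 21 d animal 2 to 0.37 in 1-MIM-OH 21 d animal 2, and the squares stay nearer to 0 and do not follow it.

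Across the 23 livers all 21 pairs of enzymes correlated positively, with Pearson's r from 0.35 to 0.89 (median 0.62) and Spearman's rho from 0.34 to 0.84. By Pearson's r, 18 of the 21 pairs passed at an adjusted p under 0.05 over all 28 pairs of the 8 genes, and by rho 19 did (permutation tests, 2-sided). The closest pair was Fdft1 and Lss, with r = 0.89 and rho = 0.84, each with p = 1e-05, the smallest that 100000 permutations can give. Idi1 with Cyp51 had r = 0.82 and rho = 0.76, and Fdps with Cyp51 had r = 0.80 and rho = 0.82. The loosest were Hmgcs1 with Fdps (r = 0.35, permutation p = 0.101) and Fdps with Lss (r = 0.35, permutation p = 0.102). Without the 2 livers farthest from the median of the first gene of a pair, r ran from 0.34 to 0.87.

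The enzymes also correlated within the 3 groups of 6 animals. Taken as deviations from the group means, r was 0.48 to 0.88 (median 0.75). Within the 6 vehicle 21 d livers it was 0.79 to 0.98, within the 6 treated 90 d livers 0.00 to 0.95 with 20 of 21 above 0, and within the 6 vehicle 90 d livers 0.27 to 0.88. For the 5 treated 21 d livers no value is given here, because the group has fewer than 6 animals. Without 1-MIM-OH 21 d animal 2, r over the other livers ran from 0.28 to 0.89. All 23 arrays were scaled together by the authors, so the points share that step.

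Srebf2 mRNA did not pass with any of the 7 enzymes. Its r ran from -0.44 with Fdps (rho = -0.32; permutation p = 0.0342, adjusted p = 0.0504) to 0.22 with Sqle (rho = 0.19), with a median of 0.10. Without the 2 farthest livers the value with Fdps was -0.18, the lowest of a range that ended at 0.37. The range of Srebf2 over all livers was also the narrowest of the 8 genes, 0.67 log2 units.

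The genes most like the mean of the 8, among 10836 others with a mean of at least 6, included further enzymes of the same route. By Pearson's r over the 23 livers they were Mvk (mevalonate kinase, 0.91), Nsdhl (a sterol dehydrogenase, 0.86), Msmo1 (a sterol methyl oxidase, 0.86), Hsd17b7 (a sterol ketoreductase, 0.84, from a probe set that may bind related transcripts), Nif3l1 (0.82), Ddx1 (an RNA helicase, 0.82), Tmem97 (a membrane protein that binds sterols, 0.80) and Sec13 (a coat protein of vesicles that leave the endoplasmic reticulum, 0.77). Dhcr7, which makes cholesterol in the last step of one branch, followed at rank 11 with 0.75. It was picked after its value was seen. Over whole lists, r ran from 0.11 (Tm7sf2, a sterol reductase) to 0.91 (Mvk) for the 12 other sterol synthesis genes and from -0.42 (Me1, malic enzyme) to 0.38 (Acaca, acetyl-CoA carboxylase) for the 13 fatty acid synthesis genes. These 8 most like genes did not pass for treatment at either time, with differences between -0.06 and 0.20.

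Kupffer cell markers and acute phase genes correlated positively with the mean of the 8 genes. All 6 Kupffer cell markers had r between 0.40 and 0.47 with it, and the 15 acute phase genes had r between 0.12 and 0.45. Many other genes correlated as much. Among the 10836 genes compared, the Kupffer cell markers stood at ranks 735 to 1283 and the acute phase genes at ranks 868 to 4394. The 2 neutrophil markers with a mean of at least 6 had 0.45 and 0.46. Markers of the other cells with a mean of at least 6 lay on both sides of 0. The values were -0.55 (Reln) to 0.01 for 5 stellate cell markers and -0.34 (Oit3) to 0.18 for 5 sinusoidal endothelial markers. For 4 hepatocyte markers they were -0.21 to -0.01. The T cell marker Cd3e had -0.25, the B cell marker Ighm 0.16, and the cholangiocyte markers Epcam and Sox9 -0.17 and 0.14. The Kupffer cell score, the mean of the markers each centred on its own mean, was -0.96 to 2.15 in 1-MIM-OH 21 d and -0.56 to 1.73 in vehicle 21 d livers, and -0.71 to 1.04 in 1-MIM-OH 90 d and -0.80 to 0.75 in vehicle 90 d livers. 1-MIM-OH 21 d animal 2 stood apart from its group, with a Saa1 level of 14.83 against 10.75 to 11.87 in the other 4 animals. The 4 measured hepatocyte markers were bright, with means over the 23 livers of 15.25 for Alb, 15.07 for Apoa1, 15.13 for Ttr and 14.29 for Cps1, and their score varied only from -0.08 to 0.04. The part of these cells in the co-variation was not tested.

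The wider pathway was followed through a list of sterol synthesis enzymes, of which 19 of 22 had a probe set of their own. The list includes all the enzymes among the 8 genes, so its counts and medians are not independent of theirs. None of the 19 passed at 21 d (median -0.05, 8 above 0 and 11 below) or at 90 d (median 0.06, 11 above 0 and 8 below). At an unadjusted p under 0.05 there were 5 and 0 of the 19, against 16.6% and 12.1% of all genes. Lss and Fdft1 are among these 5. None passed for the difference of the effects, with time on 1-MIM-OH or with time on vehicle. The largest values belonged to Mvd, mevalonate diphosphate decarboxylase, with 0.78 ± 0.28 at 21 d (adjusted p = 0.158) and -0.24 ± 0.27 at 90 d, and to Sc5d, a sterol desaturase of the late pathway, with -0.38 ± 0.11 at 21 d (adjusted p = 0.0812) and -0.17 ± 0.10 at 90 d. Without 1-MIM-OH 21 d animal 2, Sc5d (-0.47, adjusted p = 0.0141) and Ebp, a sterol isomerase (-0.37, adjusted p = 0.0114), passed as lower at 21 d. In that fit 1145 of 45037 probe sets passed as lower, against 248 in the main fit. Sc5d also passed with a mean of at least 6 (adjusted p = 0.0495), where 426 of 19345 probe sets passed as lower. Like Ebp, it passed with array weights too (adjusted p = 0.0334 and 0.0449), where 740 probe sets passed as lower. Sc5d was -0.03 without the 5 arrays over 0.9, which leaves 1 treated liver at 21 d. Ebp was named after its values were seen.

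**Figure D4:**
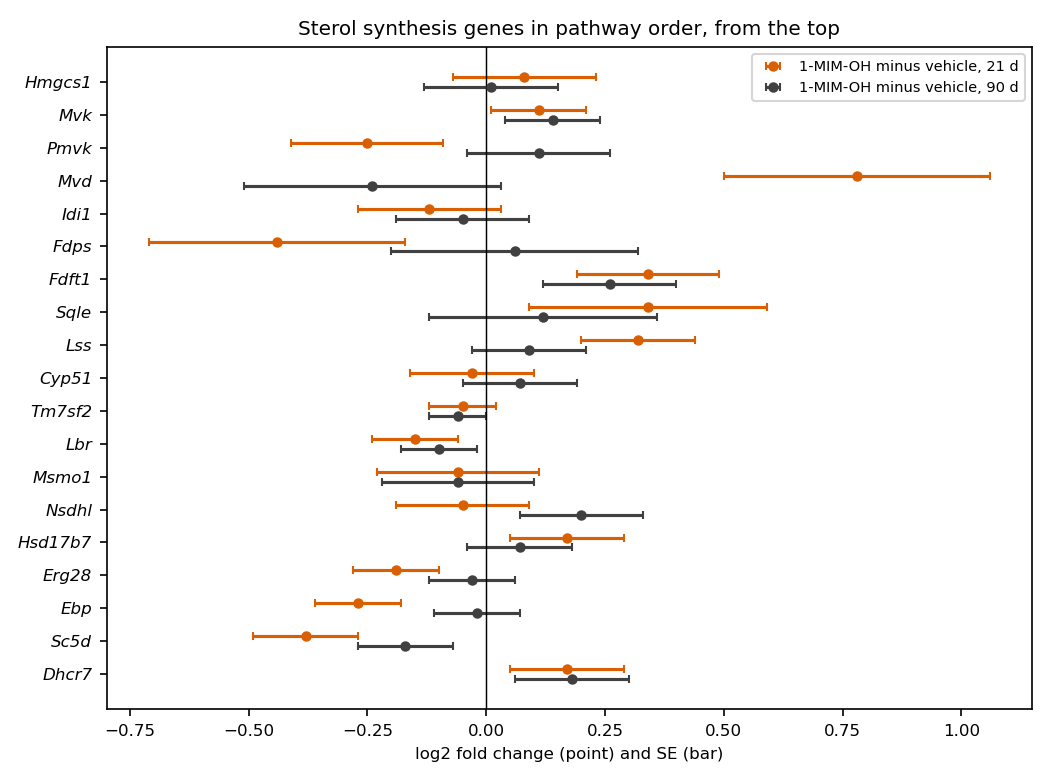
Log2 fold change of 1-MIM-OH over vehicle (point) with its SE (bar) for the 19 measured sterol synthesis genes in pathway order from the top, at 21 d and 90 d. Points lie on both sides of 0 along the route, from -0.44 for Fdps to 0.78 for Mvd at 21 d and from -0.24 for Mvd to 0.26 for Fdft1 at 90 d.

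Among the genes that control SREBP2 or take up sterol, 14 of 18 were measured. At 21 d 1 of the 14 fell, against 0.594% of all genes, and at 90 d none passed; the medians were 0.04 and 0.06. The one was Rnf139, a ubiquitin ligase of the endoplasmic reticulum that takes part in sterol-controlled protein breakdown, with -0.30 ± 0.07 at 21 d (adjusted p = 0.0418) and -0.02 ± 0.07 at 90 d (adjusted p = 0.955). Its call ended in 15 of the 23 fits that left out 1 animal (adjusted p up to 0.118), and with the Gapdh covariate the value was -0.14 (adjusted p = 0.643). SREBP2's escort Scap gave -0.02 ± 0.07 at 21 d and -0.05 ± 0.07 at 90 d, and Insig1 and Insig2, which hold the complex back, gave 0.32 ± 0.13 and -0.26 ± 0.12 at 21 d and -0.25 ± 0.13 and 0.19 ± 0.11 at 90 d. These 3 were picked after their values were seen, and none passed.

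Of the genes for efflux and the sterol sensor LXR, 8 of 9 were measured and none passed at either time (medians 0.00 and -0.04). Abca1, which loads cholesterol onto lipoproteins, gave 0.02 ± 0.10 at 21 d and -0.42 ± 0.10 at 90 d (adjusted p = 0.0525), and that 90 d value passed in 10 of 34 alternative settings. Srebf1 gave 0.24 ± 0.25 and -0.44 ± 0.24. Of the genes for esterification and removal as bile acids, 7 of 9 were measured. None passed at 21 d (median -0.12), and 1 of 7 fell at 90 d (median -0.08), against 0.247% of all genes. It was Cyp39a1, an oxysterol hydroxylase, with -1.15 ± 0.18 at 90 d (adjusted p = 0.00274), which passed in all 34 alternative settings, and -0.51 ± 0.19 at 21 d (adjusted p = 0.182). Cyp39a1 was also lower at 90 d than at 21 d, with -1.78 ± 0.19 on the log2 scale in treated livers (adjusted p = 0.00013) and -1.14 ± 0.18 in vehicle livers (adjusted p = 0.0327), and 0.011% of all genes fell in each of these comparisons. The call in vehicle livers did not hold in every setting. No probe set passed between the vehicle groups with a replicate block, or without animal 1 or 5 of either vehicle group.

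Of the enzymes that use isoprenoids outside sterol synthesis, 11 of 12 were measured, and at 21 d 1 rose and 1 fell, against 0.577% and 0.594% of all genes (median 0.04); at 90 d none passed (median -0.05). Both encode subunits of one enzyme, the geranylgeranyl transferase that lipid-tags Rab proteins. Rabggta rose by 0.32 ± 0.07 (adjusted p = 0.0329) and Rabggtb fell, with -0.43 ± 0.10 (adjusted p = 0.0351) at 21 d. Their calls ended in 9 and 8 of the 23 fits that left out 1 animal, with adjusted p up to 0.0827 and 0.0926, and with the Gapdh covariate the values were 0.19 (adjusted p = 0.49) and -0.21 (adjusted p = 0.574).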

How the data were processed

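Liver RNA of 23 mice was measured on Affymetrix Mouse Genome 430 2.0 arrays, 1 per animal, and p-values rest on the differences between animals. Per the submitters' processing notes, the authors used Partek and RMA (robust multi-array average); no version is named in the sources used here. The deposited values are taken as log2 signals, from their range (2.23 to 15.41) and the use of RMA; array medians were 5.53 to 5.61. RMA brings arrays to a common distribution, so a shift shared by all genes would not show. Values relative to background were not used here.

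After leaving out 64 control probe sets, 45037 were tested; the platform annotation gave 34945 to 1 gene, 932 to several and 9160 to none. A gene was represented by its probe set with the highest mean. The 4 group means were fitted with limma 3.58.1 (functions lmFit and eBayes, run under R 4.3.3) over all 23 arrays (19 residual degrees of freedom). Contrasts were treated against vehicle at 21 d and at 90 d, their difference, and 90 d against 21 d within treated and within vehicle mice. P-values were adjusted by Benjamini-Hochberg over all probe sets, with a threshold of 0.05, and differences are given with the moderated SE and a 95% interval. The 8 genes were also compared with 2-sided exact permutation tests on group means, and correlations with 100000 permutations (SciPy 1.17.1). Data were simulated over 45037 probe sets, with some changed by 1.5-fold, 2-fold and 3-fold. For the 21 d contrast the fit found 79.1%, 95.5% and 97% of these, and 11 unchanged ones. For 90 d it found 83.6%, 89.6% and 100%, and 6 unchanged ones. The simulated noise was independent and normal, so it held no co-variation between genes and no Gapdh differences between arrays. Changed probe sets were drawn from all, so these shares are not those of the 8 genes. The SD within groups of Fdps and Sqle was larger than in most genes with a mean of at least 6.

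Genes of 8 pathway lists were named if they passed at 21 d or 90 d, or, where none did, if they were the 2 with the largest difference; the 8 genes most like the mean were named by correlation. The members, lists and rules were chosen with earlier results of these data known. Alternatives were a floor on the mean of 6, the mean of a gene's probe sets, only the groups compared, other scalings, a trended and robust fit, array weights, replicate numbers as a block, transcript shortening as a covariate or filter (limit 0.9) and leaving out each array. The beta-actin covariate and the motif TCACCCCA were added after the data were seen.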

Additional observations from a re-analysis of the deposited data

Results flagged for a closer look

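The highest and the lowest animal of each group were examined for a gap to the others in each of the 8 genes, in 32 groups of 5 or 6 animals. None of the 32 groups held an animal that stood apart by Dixon's 95% limit, where chance alone gives about 1 in 20. No difference of treatment effects between 21 d and 90 d passed for any of the 8 genes.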

How the results depend on the processing

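The result that none of the 8 genes passed in any of the 5 comparisons was the same in every setting run, 34 for each comparison and 33 for the difference of the effects: of 1352 values, 0 passed, 84 took the other sign, and the lowest adjusted p was 0.0983. All 3 genes below 0 at 21 d changed with the Gapdh excess, and its part was not tested. Fdps, against -0.44, was 0.33 with the Gapdh covariate, 0.23 with the beta-actin covariate and 0.54 without the 5 arrays over 0.9. In the same order, Idi1, against -0.12, was 0.05, -0.00 and 0.08, and Cyp51, against -0.03, was 0.18, 0.14 and 0.32. Sqle, already above 0 with 0.34, was 0.66 with the Gapdh covariate and 0.79 without the 5 arrays. That last setting also gave a median of the 8 genes of 0.46 at 21 d, -0.30 for the difference of the effects and -0.18 between 90 d and 21 d of treatment. This setting leaves 1 treated liver at 21 d, that of animal 2, in every comparison with that group.

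How many of all probe sets passed did depend on the setting, and the cause was not tested. At 21 d (431), 813 passed with a mean of at least 6, 240 with the mean of a gene's probe sets, 207 with only the groups compared, 1426 with array weights, 123 with the Gapdh and 125 with the beta-actin covariate. At 90 d (226), 149 passed with only the groups compared, 463 with array weights, 504 with the Gapdh and 416 with the beta-actin covariate, and 761 without the arrays over 0.9. For the difference of effects (0), 6 passed without the arrays over 0.9. Between 90 d and 21 d of treatment (34), 2 passed with only the groups compared, 12 with the Gapdh and 7 with the beta-actin covariate, and 77 without the arrays over 0.9. Between the vehicle groups (3), 6 passed with a mean of at least 6, 14 with the mean of a gene's probe sets, 20 with only the groups compared, 6 with repeated quantile normalization, 7 with the trended and robust fit, 32 with array weights, 8 with the beta-actin covariate and 18 without the arrays over 0.9. With a replicate block, 91 passed at 21 d, 148 at 90 d and 0 between the vehicle groups. Arrays that share a replicate number had a median correlation of -0.16 in their deviations, against 0.04 for other pairs, and 1 of 23 correlated best with its own number. These values showed no pairing by number, but they cannot exclude a step shared by arrays of the same number.

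Leaving out 1 animal at a time gave 133 to 2265 probe sets at 21 d, 114 to 389 at 90 d, 0 to 53 for the difference, 10 to 1644 between treated groups and 0 to 16 between vehicle groups, with 0 to 0 of the 8 genes in each. The highest counts came without 1-MIM-OH 21 d animal 2, except at 90 d, where 389 passed without 1-MIM-OH 90 d animal 6. Medians of the 8 genes then ran from 0.09 to 0.16, 0.02 to 0.13, -0.08 to 0.03, 0.04 to 0.16 and -0.05 to 0.13. Of the sterol synthesis list, 0 to 2 passed at 21 d, 0 to 1 between treated groups and 0 to 0 elsewhere.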

Other observations

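Genes of neighbouring processes were read from the same fit. None of the 13 fatty acid synthesis genes passed at 21 d (median 0.17) or 90 d (median -0.12). Thrsp, which promotes lipogenesis, gave 0.81 ± 0.44 at 21 d and -0.38 ± 0.42 at 90 d, and the elongase Elovl6 gave 0.69 ± 0.25 and -0.32 ± 0.23. Elovl6 passed at 21 d without 1-MIM-OH 21 d animal 2 (0.89, adjusted p = 0.0326) and with array weights. In these fits 1120 and 686 of 45037 probe sets passed as higher, against 183 in the main fit. Over all 34 other settings Elovl6 at 21 d ran from -0.09 to 0.89 and Thrsp from -1.06 to 1.28. The lowest of both came without the 5 arrays whose Gapdh excess was over 0.9, which leaves 1 treated liver at 21 d. Of 14 circadian clock genes measured of 15, none passed at 21 d (median 0.25) and Cry1, a repressor of the clock, fell at 90 d (-0.52 ± 0.12, adjusted p = 0.0462; list median 0.12), against 0.247% of all genes. Its call ended in 17 of the 23 fits that left out 1 animal, with an adjusted p of up to 0.139. None of the 15 acute phase genes passed (medians -0.15 and 0.18), and Lcn2 and Saa2 gave -0.13 ± 1.25 and -0.13 ± 1.12 at 21 d and 1.97 ± 1.20 and 1.21 ± 1.07 at 90 d.

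No cell type marker passed at 21 d or 90 d. The medians at 21 d and 90 d were -0.05 and -0.02 for 4 hepatocyte markers, -0.44 and 0.36 for 6 Kupffer cell markers, -0.15 and 0.00 for 6 sinusoidal endothelial markers, 0.03 and -0.06 for 6 stellate cell markers and -0.12 and 0.14 for 5 cholangiocyte markers. They were -0.08 and 0.11 for 6 T and NK cell markers, -0.12 and -0.03 for 4 B cell markers and 0.16 and 0.27 for 5 neutrophil markers.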
